A study of Mus musculus with 6 samples.

Results

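The tubulin isotype genes, which encode the alternative alpha and beta subunits of microtubules, were listed by name. They are 7 beta-tubulin genes (Tubb3, Tubb2a, Tubb2b, Tubb4a, Tubb4b, Tubb5 and Tubb6) and 3 alpha-tubulin genes (Tuba1a, Tuba1b and Tuba1c), 10 of 55400 genes in the table. Tubb3, Tubb2a, Tubb2b, Tubb4a and Tuba1a, which are known for high levels in neurons or brain, are called neuronal isotypes below, and the other 5 general isotypes. All 10 were expressed above the minimum set for testing, a mean of 1 FPKM (fragments per kilobase of exon, scaled to the library's total) over the libraries.

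Microtubules are polymers of alpha-tubulin and beta-tubulin dimers, and mammals make each subunit from several genes, called isotypes. The isotype genes encode near-identical proteins that differ mainly in a short acidic C-terminal tail, which lies on the microtubule surface and takes up modifications such as glutamylation. Dividing progenitors build their spindles from widely expressed isotypes, whereas young neurons add isotypes of their own as they grow axons.

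Polyadenylated RNA had been sequenced from motor neuron progenitors made in culture from C57BL/6 mouse embryonic stem cells that were grown on fibroblast feeder cells. Embryoid bodies of 500 cells received 1 µM retinoic acid and 0.5 µM SAG, an activator of Sonic hedgehog signalling, from day 2, and were harvested on day 4. There were 3 libraries labelled control and 3 labelled Setd5sh, with genotype WT for all 6. Doxycycline at 1 µg/mL for 36 h is described for both groups alike, and what the control cells carried was not given in the sources used here. Setd5sh as a name has the form used for a short hairpin RNA against Setd5, which encodes a SET domain protein. The labels do not say whether the replicates came from separate cultures. The p-values therefore measure the spread among these libraries alone, and that spread may be technical.

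Total counts ran from 19639303 (Setd5sh replicate 3) to 32046466 (control replicate 1) per library. Setd5 itself stood at 22.2, 18.8 and 16.7 FPKM in control replicates 1, 2 and 3. In the Setd5sh replicates it stood at 14.4, 13.5 and 12.9 FPKM, so the groups did not overlap (log2 fold change -0.51, SE 0.16, edgeR adjusted p = 0.995). Groups apart and lower in Setd5sh were found for 2.14% of all genes tested. The unadjusted edgeR p of Setd5, 0.0143, had rank 22 among 12199 genes. An exact two-sided permutation test gave p = 0.1, the smallest that 3 against 3 libraries allows. Control replicate 1 stood apart from the other libraries: 26505 genes had a count there, against 20979 to 23637 elsewhere, and the chi-square of its counts against each of the other controls, per degree of freedom, was 210 and 213, against 30.8 to 64.3 for the other pairs within a group. Both measures can also rise with total count, which was highest in this library. Progenitor markers (Sox1, Sox2, Nes, Pax6, Olig2 and Nkx6-1) were all expressed, at a summed 248 to 265 FPKM in control libraries and 273 to 330 FPKM with Setd5sh. The ranges of that sum did not overlap, but only 3 of the 6 genes had a log2 fold change above 0, and 0 passed the test. Olig2, Nkx6-1 and Nes had 0.34, 0.38 and 0.44 (SE 0.20, 0.21 and 0.22). Sox1, Sox2 and Pax6 had -0.17, -0.02 and -0.01 (SE 0.15, 0.14 and 0.19). Sox1 had groups apart and lower in Setd5sh, as in 2.14% of all genes tested. Markers of neurons (Elavl3, Elavl4, Syp and 4 more) summed to 7.41 to 17.2 FPKM in control libraries and 9.14 to 14.9 FPKM with Setd5sh. Of those 7, Dcx, Stmn2, Snap25 and Rbfox3 were under the expression minimum. In bulk RNA, more cells of a type and more RNA per cell cannot be told apart. No gene of 12199 passed an adjusted p of 0.05 in the edgeR quasi-likelihood test, a background of 0%. An unadjusted p under 0.05 was found for 149 genes, or 1.22% (0.615% higher in Setd5sh and 0.607% lower). That is a smaller share than the 0.05 that the threshold allows when no gene differs. With 1 library left out the count ran from 26 to 963 genes. A gene that did not pass is therefore not shown to be unchanged.

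The ends of the beta coding sequences, which code for the variable tails, show how the isotypes differ and which genes a short read can tell apart. They are given from GENCODE transcripts of the mm10 build up to and including the stop codon. The lower-case letters are 3 codons that the genes shown share except for the last base of a codon, and the capitals mark what follows them.
Tubb3: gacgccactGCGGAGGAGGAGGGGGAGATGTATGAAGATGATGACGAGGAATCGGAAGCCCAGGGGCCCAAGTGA
Tubb2a: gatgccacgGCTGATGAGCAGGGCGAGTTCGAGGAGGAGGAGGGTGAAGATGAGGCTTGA
Tubb2b: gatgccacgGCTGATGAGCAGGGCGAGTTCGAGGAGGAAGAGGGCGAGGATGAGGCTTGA
Tubb4a: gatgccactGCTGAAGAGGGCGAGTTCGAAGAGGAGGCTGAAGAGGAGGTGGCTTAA
Tubb4b: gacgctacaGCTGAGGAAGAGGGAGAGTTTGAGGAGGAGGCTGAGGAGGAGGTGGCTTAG
Tubb5: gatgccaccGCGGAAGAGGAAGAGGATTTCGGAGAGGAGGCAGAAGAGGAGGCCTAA

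Tubb3 had 66 bases after the shared codons, against 48 to 51 in the other beta genes shown. Over the last 75 coding bases Tubb3 was 48.1% to 52.5% identical to the other 6 beta genes, while Tubb2a and Tubb2b were 96.0% identical to each other. In Tubb3 those 75 bases hold only the shared codons and the tail. In the other genes shown they also hold bases before those codons, so the unequal tail lengths enter the percentages. Over the whole coding sequence the 21 beta pairs were 80.2% to 96.5% identical and the 3 alpha pairs 97.1% to 98.3%. Tuba1a and Tuba1b differed at 23 of 1356 aligned coding positions, and Tubb2a and Tubb2b at 47 of 1338.

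Tubulin mRNAs are also marked at their beginnings: when free tubulin dimers are in excess, the factor TTC5 binds the first residues of a nascent tubulin on the ribosome and the mRNA is degraded. The first 24 coding bases of 1 neuronal beta, 1 general beta and 1 alpha gene are shown, with the 12 that code for the first residues in capitals.
Tubb3: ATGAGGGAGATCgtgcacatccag
Tubb5: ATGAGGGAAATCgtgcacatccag
Tuba1a: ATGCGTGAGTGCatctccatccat

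Those 12 bases were the same in Tubb3 and Tubb4b, and the same in all 3 alpha genes. In Tubb2a, Tubb2b, Tubb4a and Tubb5 they differed from Tubb3 only between codons for the same residues, so the encoded start was the same.

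How far reads can be assigned to 1 isotype follows from these sequences. Windows of 100 bases were taken along the main transcript of each gene and looked up in the transcripts of all other genes. None of the windows of Tubb3, Tubb4a, Tubb5 or Tubb6 occurred in another gene. The shared part was 27.7% for Tubb2b and 36.9% for Tubb2a, mostly with each other, and 30.6% for Tubb4b, mostly with the processed pseudogene Tubb4b-ps1. It was 53.4% for Tuba1c, 65.8% for Tuba1a and 73.0% for Tuba1b, shared among these 3 and with several pseudogenes. The handling of reads that match several genes was not given in the sources used here. Levels of Tuba1a, Tuba1b, Tuba1c, Tubb2a, Tubb2b and Tubb4b are therefore less certain than those of the other 4. Exons of Tuba1a and Tuba1b also overlap the gene Gm49450 on the same strand, and Tuba1b and Tubb4b overlap Gm41396 and Fam166a on the opposite strand. These 3 genes held at most 23 counts in any library, which does not show how many reads in the overlaps were left uncounted.

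**Figure D1:**
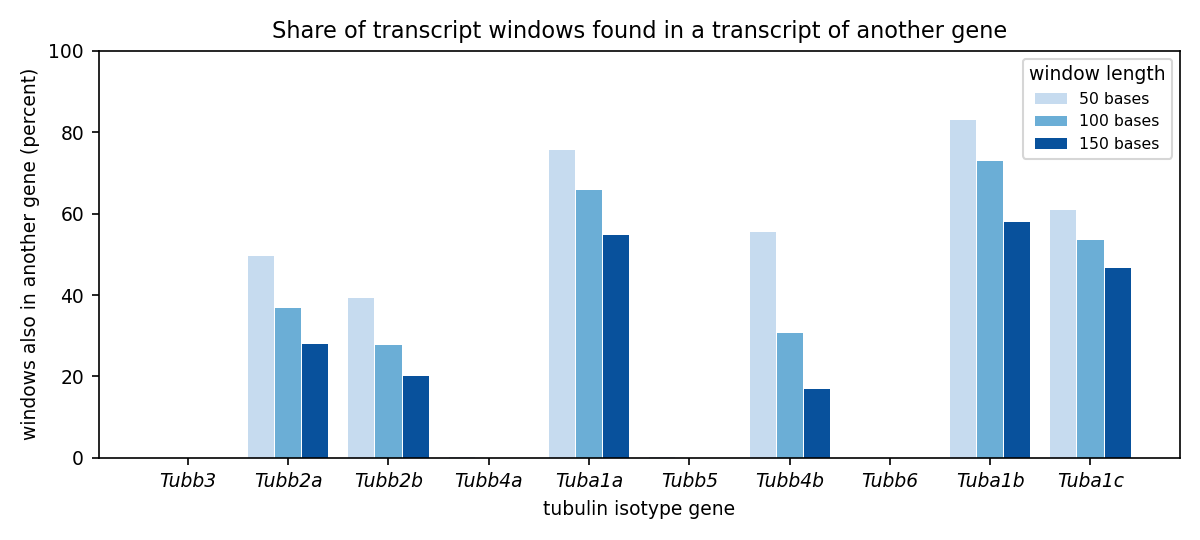
For each tubulin gene, bars give the percent of windows of 50, 100 and 150 bases of its main transcript that also occur in a transcript of another gene. Tubb3 and Tubb6 had none at any length and Tubb4a and Tubb5 at most 0.2%, whereas Tuba1b reached 83.1% at 50 bases and still had 57.9% at 150 bases.

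The general isotypes Tuba1b and Tubb5 made up most of the summed tubulin FPKM in both groups. Tuba1b, the alpha isotype that most cell types express, stood first at 1040 ± 272 FPKM in control libraries and 1167 ± 75.3 FPKM with Setd5sh (SD, n = 3 each, as in all such values below). Tubb5, the main beta isotype of dividing cells, stood second at 943 ± 237 and 1130 ± 74.5 FPKM. Their ranges overlapped in both groups, while within libraries Tuba1b was above Tubb5 in 3 of 3 control and 2 of 3 Setd5sh libraries. These FPKM values divide by the deposited exonic lengths, 3327 bases for Tubb5 and 1875 for Tuba1b. Their main transcripts have 2649 and 1743 bases, so the order of these 2 genes depends on the length used. Below them came Tubb4b (257 FPKM in control) and Tuba1a (247 FPKM), whose ranges overlapped each other in both groups. Tubb2b, Tuba1c and Tubb6 followed at 129, 98.5 and 74.4 FPKM in control; neighbours among these 3 overlapped in control and did not in Setd5sh. Tubb3, Tubb2a and Tubb4a were lowest, at 20.8, 15.8 and 10.4 FPKM in control, where each overlapped the next. In Setd5sh, Tubb3 at 46.4 FPKM no longer overlapped Tubb2a at 16.5 FPKM, and Tubb2a no longer overlapped Tubb4a at 9.93 FPKM. Tubb4a was the lowest of the 10 in every library.

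**Figure D2:**
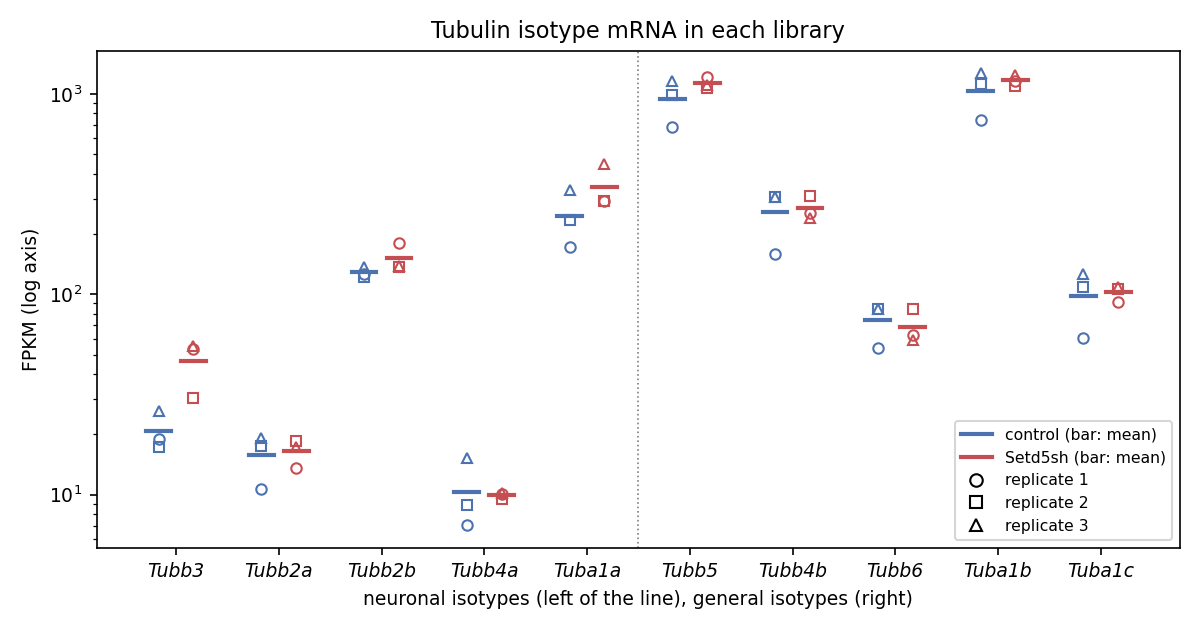
FPKM of each of the 10 genes on a log axis, with 1 point per library, bars at group means, control in blue and Setd5sh in red. Tuba1b and Tubb5 lie above all other genes in every library, the 6 Tubb3 points separate into groups of 17.3 to 26.1 and 30.5 to 55.0 FPKM, and control replicate 1 (blue circle) is the lowest point for 8 of the 10 genes, all but Tubb3 and Tubb2b.

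Tubb3 encodes the beta-tubulin used as a standard neuronal marker, which axons need for guidance. The gene lies on chromosome 8 at 123411424-123422015 (plus strand, mm10), and its main transcript has 4 exons. It stood at 19.0, 17.3 and 26.1 FPKM in control replicates 1, 2 and 3, from 1136, 877 and 969 counts. In Setd5sh replicates 1, 2 and 3 it stood at 53.5, 30.5 and 55.0 FPKM, from 2073, 1577 and 2019 counts. Every Setd5sh library was above every control library, and Setd5sh replicate 2 was much nearer to control than the other 2. Across all genes tested 3.07% had groups apart and higher in Setd5sh, and 5.21% had groups apart in either direction. The log2 fold change was 1.15 (SE 0.27), a 2.22-fold difference, and its unadjusted p of 0.00321 was the second smallest of 12199 genes, but the edgeR adjusted p was 0.995. An exact two-sided permutation test over the 6 libraries gave p = 0.1, the smallest that 3 against 3 allows. The log2 FPKM ratio was 1.50, 0.82 and 1.08 between the libraries numbered 1, 2 and 3. Without single libraries the log2 fold change ran from 1.01 to 1.41. Tubb3 passed the threshold under 3 of 18 other settings: with no expression filter (edgeR adjusted p = 0.000279, with 73 genes or 0.248% called), in DESeq2 with a block for the replicate number (adjusted p = 0.00409, with 2 genes or 0.0164% called), and in edgeR with that block over the libraries numbered 2 and 3 only (adjusted p = 2.4e-05, with 70 genes or 0.574% called, on 1 residual degree of freedom). The last 2 were chosen after seeing the data.

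Neuron markers that passed the expression minimum are given beside Tubb3. Elavl3, an RNA-binding protein of young neurons, stood at 5.87, 2.34 and 2.54 FPKM in control libraries. With Setd5sh it stood at 5.52, 3.44 and 5.29 FPKM (log2 fold change 0.38, SE 0.40). Elavl4, its relative, stood at 8.29, 2.58 and 3.54 FPKM in control libraries. With Setd5sh it had 5.80, 3.03 and 5.95 FPKM (log2 fold change 0.01, SE 0.47). Setd5sh replicate 2 was the lowest Setd5sh library for these genes as it was for Tubb3. Control replicate 1 was the highest of all 6 for Elavl3 and Elavl4, while its Tubb3 level lay between those of the other controls. Syp, a synaptic vesicle protein gene, stood at 1.32, 0.96 and 1.17 FPKM in control libraries, close to the expression minimum. With Setd5sh it had 2.08, 1.36 and 1.63 FPKM (log2 fold change 0.54, SE 0.27, edgeR adjusted p = 0.995). Its groups were apart and higher in Setd5sh, as in 3.07% of all genes tested. Summed over the 7 neuron markers, the groups overlapped. The part of these genes' cells in the Tubb3 difference was not tested.

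Tuba1a is the alpha isotype that young postmitotic neurons express at high levels, and lies on chromosome 15 at 98949837-98953703 (minus strand). It had 172, 236 and 333 FPKM in control replicates 1, 2 and 3, and 290.9, 290.8 and 448 FPKM with Setd5sh. Control replicate 3 was above Setd5sh replicates 1 and 2, so the groups overlapped, although each Setd5sh library exceeded the control of the same number, as in 12.8% of all genes tested. Its log2 fold change was 0.47 (SE 0.27, edgeR adjusted p = 0.995), and ran from 0.23 without Setd5sh replicate 3 to 0.75 without control replicate 3. It was 0.49 with a replicate block (SE 0.15, edgeR unadjusted p = 0.0189, adjusted p = 0.938).

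Tubb2b, an isotype of neural progenitors and migrating neurons, and Tubb2a, abundant in brain, are neighbours on chromosome 13 (34126748-34130466 and 34074274-34078007, both minus strand). Tubb2b stood at 127, 123 and 137 FPKM in control libraries and 180, 137 and 138 FPKM with Setd5sh. The groups did not overlap, but the highest control, at 136.9 FPKM, was just under the lowest Setd5sh library, at 137.5 FPKM. Its log2 fold change was 0.23 (SE 0.17, edgeR adjusted p = 0.995) and was 0.08 without Setd5sh replicate 1. Tubb2a stood at 10.6, 17.5 and 19.2 FPKM in control libraries and 13.6, 18.5 and 17.4 FPKM with Setd5sh, overlapping throughout. Its log2 fold change of 0.06 (SE 0.24) turned to -0.13 without control replicate 1. Since these 2 share many windows, a read moved from one to the other would change both values.

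Tubb4a, an isotype of mature neurons and oligodendrocytes, lies on chromosome 17 at 57080066-57087782 (minus strand). It stood at 7.04, 8.84 and 15.2 FPKM in control libraries and 10.1, 9.48 and 10.2 FPKM with Setd5sh. All 3 Setd5sh libraries lay inside the control range. Its log2 fold change of -0.07 (SE 0.28) was positive under 6 of 18 other settings, up to 0.32 without control replicate 3.

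Among the general isotypes no gene had groups apart. Tubb5 (chromosome 17, 35833921-35838306, minus strand) stood at 687, 986 and 1155 FPKM in control libraries and 1215, 1074 and 1102 FPKM with Setd5sh. Control replicate 1 was far below the other 5 libraries, and the log2 fold change of 0.26 (SE 0.21, edgeR adjusted p = 0.995) was 0.11 without it. Tuba1b (chromosome 15, 98931425-98934565, minus strand) stood at 738, 1115 and 1267 FPKM in control libraries and 1154, 1099 and 1248 FPKM with Setd5sh. Its log2 fold change of 0.16 (SE 0.21) was -0.003 without control replicate 1.

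Tubb4b (chromosome 2, 25222160-25224702, minus strand), a widespread isotype that also builds cilia, showed the same layout. It stood at 159, 305 and 307 FPKM in control libraries and 253, 309.9 and 241 FPKM with Setd5sh, with a log2 fold change of 0.06 (SE 0.24) that turned to -0.16 without control replicate 1. Tuba1c (chromosome 15, 99029891-99038110, plus strand), a minor alpha isotype of dividing cells, stood at 60.5, 109 and 126 FPKM in control libraries and 91.1, 107 and 109 FPKM with Setd5sh, and its log2 fold change of 0.05 (SE 0.25) turned to -0.18. Tubb6, a beta isotype found in fibroblasts and muscle, stood at 54.1, 84.7 and 84.3 FPKM in control libraries and 62.9, 84.2 and 58.9 FPKM with Setd5sh. Its log2 fold change was -0.12 (SE 0.21), between -0.27 and -0.015 without single libraries. The feeder cell markers Col1a1, Col1a2, Col3a1, Postn, Thy1, Dcn and Lum summed to 5.28 to 8.40 FPKM in control libraries and 7.06 to 9.13 FPKM with Setd5sh, and 5 of the 7 were under the minimum.

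**Figure D3:**
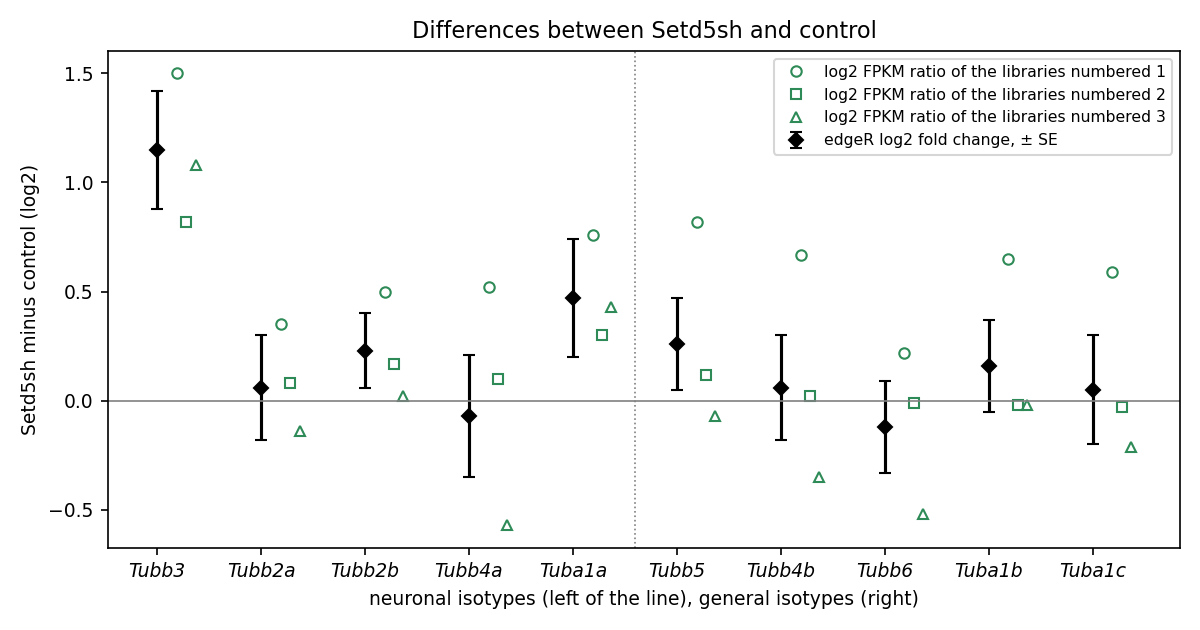
For each gene, the black diamond is the edgeR log2 fold change of Setd5sh against control with its SE, and green symbols are the log2 FPKM ratios of libraries with the same replicate number. Tubb3, at 1.15, stands above the other 9 genes, which lie between -0.12 and 0.47, and the ratio for number 1 is the highest of the 3 for every gene.

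Set side by side, the 5 neuronal isotypes had a median log2 fold change of 0.23 with 4 above 0, and the 5 general isotypes 0.061 with 4 above 0. Over all genes tested the median was -0.043, and 42.6% were above 0. Of the 10 members, 0 passed the adjusted threshold and 1, Tubb3, had an unadjusted p under 0.05. With the replicate block in edgeR 2 members had one, Tubb3 and Tuba1a, as had 328 of 12199 genes. Tubb3 and Tubb2b, 2 of 10, had groups apart and higher, against 3.07% of all genes tested (5.21% in either direction). Without control replicate 1 the neuronal median was 0.26 with 3 above 0, and the general median -0.16 with 1 above 0, Tubb5. The gap between the medians depended on the library left out: the neuronal and general medians were 0.17 and 0.173 without control replicate 2, 0.319 and 0.274 without control replicate 3, and 0.174 and 0.117 without Setd5sh replicate 1. They were 0.336 and 0.051 without Setd5sh replicate 2, and 0.233 and 0.115 without Setd5sh replicate 3. Because the genes were listed with earlier results of these data known, no test of neuronal against general isotypes was made.

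The ratio of isotypes within a library does not depend on how libraries are scaled. It does depend on the lengths used. Exonic length exceeded the main transcript more for general isotypes, as in Tubb5 (3327 against 2649 bases) and Tubb6 (2437 against 1758). Among the neuronal isotypes only Tubb2b differed (2294 against 2182). The 5 neuronal isotypes made up 16.5%, 13.4% and 15.3% of the summed FPKM of the 10 genes in control replicates 1, 2 and 3, and 16.5%, 15.4% and 19.5% with Setd5sh. The groups overlapped, with means of 15.1% ± 1.56 and 17.1% ± 2.14, and the difference of 2.08 percentage points was larger than the control SD and smaller than the Setd5sh SD. Tuba1a was 17.7%, 16.2% and 19.3% of the alpha FPKM in control libraries and 18.9%, 19.4% and 24.9% in Setd5sh, which overlapped by control replicate 3 alone. Between libraries of the same number the Setd5sh share was higher in 3 of 3 pairs, by 1.21, 3.28 and 5.54 percentage points. Of windows of 100 bases, the 3 alpha genes shared 53.4% to 73.0% with other genes. The Tuba1a share therefore depends on how shared reads were handled, which was not given. The 4 neuronal beta genes together were 12.5% ± 2.51 and 13.3% ± 1.33 of the beta FPKM, with Tubb2b as their largest part.

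Within the beta genes Tubb3 stood out. It was 1.78%, 1.12% and 1.50% of the beta FPKM in control libraries and 2.99%, 1.83% and 3.39% in Setd5sh, so every Setd5sh library was above every control. The margin was small between Setd5sh replicate 2 and control replicate 1. Against Tubb5 in the same library, the log2 ratio of Tubb3 was -5.18, -5.83 and -5.47 in control and -4.50, -5.14 and -4.32 in Setd5sh, a difference of 0.67, 0.70 and 1.14 for numbers 1, 2 and 3. Even so Tubb5 held 63.9% to 67.9% of the beta FPKM in all 6 libraries, and Tubb3 never more than 3.39%.

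**Figure D4:**
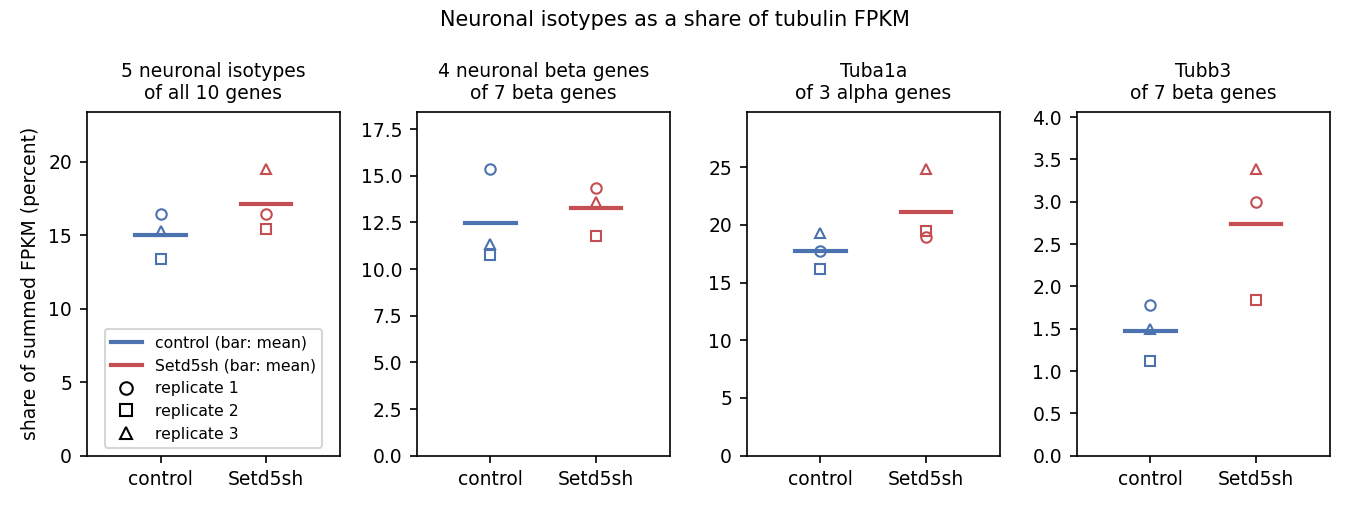
Shares of summed FPKM per library, with bars at group means: the 5 neuronal isotypes among all 10 genes, the 4 neuronal beta genes among 7, Tuba1a among 3 alpha genes and Tubb3 among 7 beta genes. In the first 3 panels the groups overlap, and in the last the control points lie at 1.12% to 1.78% and the Setd5sh points at 1.83% to 3.39%.

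The summed alpha FPKM per beta FPKM was 0.912, 0.947 and 0.99 in control and 0.859, 0.899 and 1.11 in Setd5sh. Of windows of 100 bases, the alpha genes shared 53.4% to 73.0% with other genes and Tubb5 none. The ratio therefore depends on how shared reads were handled, which was not given, and does not measure the balance of the mRNAs. Together the 10 genes took 0.494%, 0.725% and 0.838% of all counts in control and 0.818%, 0.768% and 0.818% in Setd5sh. Control replicate 1 was again the lowest.

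**Figure D5:**
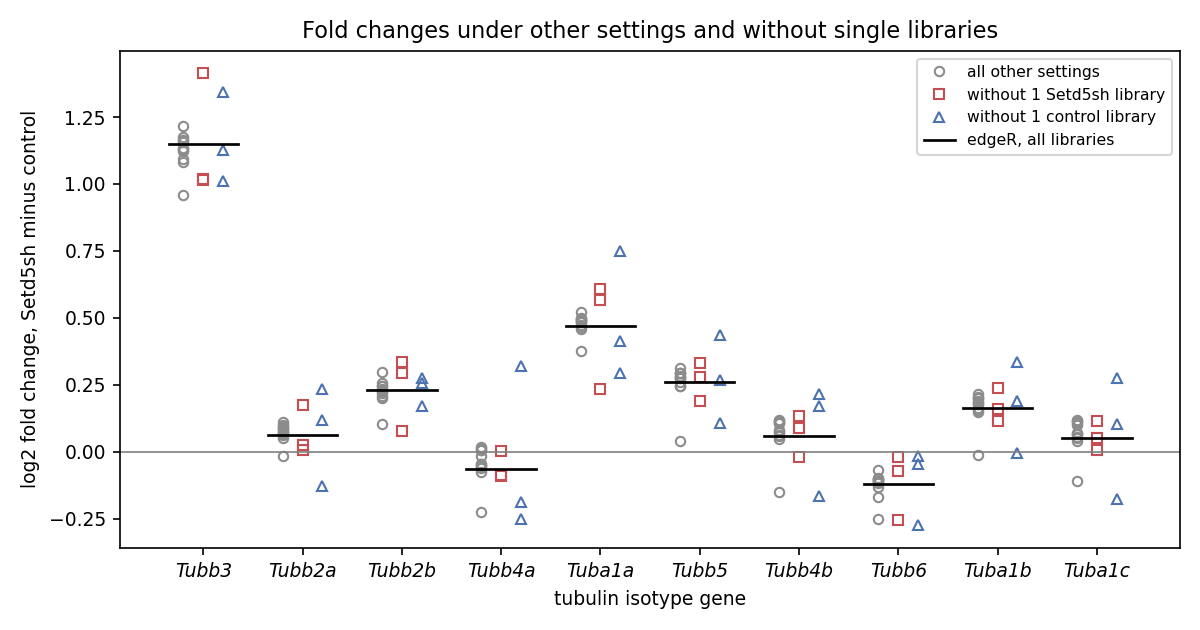
Log2 fold change of each gene under 18 other settings, with gray circles for other scalings, filters, tools and designs, red squares without 1 Setd5sh library and blue triangles without 1 control library; black lines mark the edgeR value with all libraries. Tubb3 stays between 0.96 and 1.41, Tuba1a, Tubb2b and Tubb5 stay above 0 and Tubb6 below, and the other 5 genes cross 0.

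Of 10 other genes of the tubulin family, only Tubg1, Tuba4a, Tubd1 and Tube1 passed the expression minimum, and 0 passed the test. Tubg1, the gamma-tubulin that nucleates microtubules, stood at 33.5 to 58.8 FPKM in control libraries and 51.2 to 57.6 FPKM with Setd5sh (log2 fold change 0.18, SE 0.20). Tuba4a, an alpha isotype whose mRNA already lacks the codon for the final tyrosine, had -0.31 (SE 0.37), the delta-tubulin gene Tubd1 -0.06 (SE 0.21) and the epsilon-tubulin gene Tube1 -0.31 (SE 0.19). Without control replicate 1, Tuba4a was at -0.592 and Tube1 at -0.17. Tuba3a, Tuba3b, Tuba8, Tubg2, Tubb1 and Tubal3 had at most 0.87 FPKM in any library.

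Folding of new tubulin takes prefoldin, the CCT chaperonin and the cofactors that join alpha and beta into a dimer. None of the 6 prefoldin genes, 8 CCT genes and 7 cofactor genes passed, and none had an unadjusted p under 0.05. Their median log2 fold changes were -0.06, 0.08 and -0.01, with 1, 5 and 3 genes above 0. The cofactors Tbcb, Tbca, Tbcel and Tbcc stood at 0.18 (SE 0.21), -0.17 (SE 0.20), -0.12 (SE 0.14) and 0.15 (SE 0.23). For the CCT subunits Cct3, Cct4, Cct7 and Cct8 the values were 0.14 (SE 0.15), -0.12 (SE 0.15), 0.12 (SE 0.18) and -0.16 (SE 0.24). The prefoldin genes Vbp1, Pfdn1, Pfdn6 and Pfdn4 had -0.42 (SE 0.25), -0.17 (SE 0.16), 0.19 (SE 0.19) and -0.08 (SE 0.19). Without control replicate 1, which had 55.3 FPKM of Vbp1 against 28.0 to 34.9 FPKM elsewhere, Vbp1 was at -0.069, Cct4 at -0.002 and Cct8 at 0.174.

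The factors that degrade tubulin mRNA did not pass either. Ttc5 had means of 19.4 FPKM (control) and 19.7 FPKM (Setd5sh) (log2 fold change 0.01, SE 0.13), and Cnot11, which links it to the deadenylase, had 0.16 (SE 0.18). Scaper, the adaptor between them, had -0.79 (SE 0.47), a value that rests on control replicate 1 at 5.91 FPKM, against 1.54 to 2.31 FPKM in the other 5 libraries, and was 0.03 without it. Of 25 enzymes that modify tubulin, 13 were tested and 0 passed, with a median of 0.06 and 9 above 0. The acetyltransferase gene Atat1 had -0.25 (SE 0.16), the deglutamylase gene Agtpbp1 -0.44 (SE 0.36), the detyrosinase gene Vash1 0.12 (SE 0.16) and the deacetylase gene Sirt2 0.11 (SE 0.16). Of the 8 genes of the gamma-tubulin ring complex and its partners, 0 passed and 3 were above 0, with Tubgcp5, Mzt1, Tubgcp4 and Nedd1 at -0.45 (SE 0.31), -0.29 (SE 0.22), -0.23 (SE 0.21) and -0.36 (SE 0.34). The median of those 8 was -0.14, and without control replicate 1 it was 0.02 with 7 above 0. Without that library Tubgcp5 was at 0.009, Mzt1 at -0.036, Tubgcp4 at 0.024, Nedd1 at 0.119 and Agtpbp1 at 0.148.

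Neuronal microtubule-associated genes had 9 of 15 members tested, a median of 0.26, and 7 above 0, against 42.6% of all genes. Again 0 passed. An unadjusted p under 0.05 and a higher level were found for 1 of the 9, against 0.615% of all genes, and groups apart and higher for 2 of the 9, against 3.07%. Map1a, which binds along microtubules of dendrites and axons, stood at 1.63, 1.52 and 1.60 FPKM in control libraries and 2.61, 2.13 and 2.35 FPKM with Setd5sh (log2 fold change 0.57, SE 0.17, edgeR adjusted p = 0.995). Dpysl5, of the collapsin response mediator family, stood at 33.9, 29.1 and 32.0 FPKM in control libraries and 54.8, 36.3 and 37.4 FPKM with Setd5sh (0.43, SE 0.20), and without Setd5sh replicate 1 its log2 fold change was 0.19. Stmn3, a stathmin that binds free tubulin, had 0.45 (SE 0.27) and Dpysl3 0.26 (SE 0.18). Without Setd5sh replicate 1 the list median was 0.10. Dcx, Dclk1, Map2, Map6, Mapt and Stmn2 of this list were under the expression minimum.

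The 14 general and mitotic microtubule genes had a median of -0.08 with 5 above 0, and 0 passed. Kif11, the motor that separates spindle poles, had -0.59 (SE 0.43) and Ckap5, a microtubule polymerase, -0.61 (SE 0.46). Both rested on control replicate 1, where Kif11 stood at 39.4 FPKM against 12.1 to 18.3 FPKM elsewhere and Ckap5 at 50.8 FPKM against 15.0 to 21.2 FPKM. Clasp2 and Kif23 both had -0.32 (SE 0.22 and 0.28). Without control replicate 1 the values were 0.168 for Kif11, 0.21 for Ckap5, -0.032 for Clasp2 and 0.064 for Kif23. Without control replicate 1 the median was 0.12 with 12 of 14 above 0, so its sign changed with that library, as did that of the general isotypes in the other direction. The 7 markers of cycling cells summed to 447 to 647 FPKM in control libraries and 464 to 603 FPKM with Setd5sh. Among them Mki67, a proliferation marker, stood at 78.2 FPKM in control replicate 1 against 13.1 to 23.0 FPKM in the other 5 libraries. Top2a stood at 120 FPKM there against 47.4 to 68.6 FPKM. The list was split, since Cdk1 (35.5 FPKM), Aurkb (45.7 FPKM) and Mcm2 (61.1 FPKM) were lowest of all libraries in control replicate 1. Pcna and Ccnb1 in that library lay inside the range of the others. The part of proliferation in the values above was not tested.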

How the data were processed

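The authors deposited 1 table with raw read counts, FPKM values and exonic lengths for 55400 genes. Tools listed without role or version, per the submitters' processing notes, are HISAT2, SAMtools, HTSeq and DESeq2, with the build mm10; annotation release and strand setting were not given in the sources used here. Per gene, the deposited FPKM values equal those recomputed from count, length and column total to within 0.005. Symbols, positions and transcripts came from GENCODE release M21 (mm10), which named 99.5% of the genes; Biopython 1.88 aligned coding sequences. No protein or genome sequence was used here, and some sequences and marker genes are not reported here.

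The members and lists were chosen with earlier results of these data known. Named genes are all 10 members, Setd5, and per list the 4 tested genes with the smallest p (all if 3 or fewer). The neuron, progenitor, cycling cell and feeder markers given by gene were chosen after their values were seen. Genes with a mean of at least 1 FPKM (12199) were tested with edgeR 4.0.16 (quasi-likelihood, TMM scaling, R 4.3.3), with Benjamini-Hochberg adjustment over all of them, a two-sided threshold of 0.05, and SE as the log2 fold change over the root of F. DESeq2 1.42.0 and limma 3.58.1 were alternatives, and figures used matplotlib 3.10.9. The scripts were tested on simulated counts.

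Deviations from the group means correlated at 0.185, 0.69 and 0.127 between libraries numbered 1, 2 and 3 (edgeR log2 CPM). The numbers were therefore read as possible pairs, in the pair ratios and in the replicate block. The main fit held no block, so its SE and p-values take no account of pairing. The pairing rests on the data alone, since the labels give no shared batch or day. Control replicate 1 correlated as closely with Setd5sh replicate 3 (0.191). On log2(CPM + 0.5) the pair numbered 3 had 0.073, and control replicate 1 had 0.259 with Setd5sh replicate 3 against 0.185 with its own number, so that pairing is weak.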

Additional observations from a re-analysis of the deposited data

How the results depend on the processing

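No gene passed the adjusted threshold in edgeR with all 6 libraries (149 at an unadjusted p under 0.05), nor with the other scalings, a minimum of 5 FPKM, edgeR's own expression filter, DESeq2 or limma without a block, or any 1 library left out. With no filter 73 of 29462 genes passed (18 higher, 55 lower). The replicate block in edgeR gave 0 genes; 2 settings chosen after seeing the data gave 2 (DESeq2 with replicate block) and 70 (libraries numbered 2 and 3 only, replicate block; 30 higher, 40 lower). The cause was not tested. Tubb3 passed in those 3 settings and was at 1.12 with the block (SE 0.17, edgeR unadjusted p = 0.000844, adjusted p = 0.938). Setd5 ran from -0.61 to -0.36 without single libraries, and the neuronal share difference from 0.881 to 2.94 percentage points. That difference was 1.51 percentage points on CPM and 0.764 without the 3 alpha genes.

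The log2 fold changes that changed sign are these. Over libraries 2 and 3 with the block they were Tubb2a -0.017, Tubb4b -0.149, Tuba1b -0.01, Tuba1c -0.109, Tubg1 -0.045, Tbcb -0.063, Tbcc -0.131, Cct4 0.03, Cct7 -0.022, Cct8 0.113, Pfdn6 -0.038, Pfdn4 0.148, Scaper 0.069, Agtpbp1 0.123, Tubgcp5 0.031, Tubgcp4 0.034, Nedd1 0.159, Kif11 0.209, Ckap5 0.084 and Kif23 0.095. With the block and GC and length trends removed they were Tubd1 0.008, Tbca 0.052, Cct4 0.005, Cct8 0.056, Vbp1 0.017, Pfdn4 0.209 and Mzt1 0.064. Tubb4a was 0.007 with the edgeR block, 0.019 with the DESeq2 block, and 0.008 and 0.015 in limma with pseudocounts of 1 and 0.1. Ttc5 was -0.007 at a minimum of 5 FPKM. Without single libraries the ranges were Tubb2a -0.127 to 0.233, Tubb4a -0.25 to 0.319, Tubb4b -0.163 to 0.215, Tuba1b -0.003 to 0.335, Tuba1c -0.176 to 0.274, Tubd1 -0.131 to 0.046, Tbcb -0.004 to 0.327, Tbca -0.319 to 0.001, Tbcc -0.01 to 0.299, Cct7 -0.018 to 0.261, Cct8 -0.305 to 0.174, Pfdn4 -0.189 to 0.079, Ttc5 -0.023 to 0.068, Scaper -1.13 to 0.026, Agtpbp1 -0.695 to 0.148, Tubgcp5 -0.643 to 0.009, Tubgcp4 -0.346 to 0.024, Nedd1 -0.603 to 0.119, Kif11 -0.887 to 0.168, Ckap5 -0.915 to 0.21 and Kif23 -0.498 to 0.064. The cause was not tested. Counting error is small for the members, with at least 448 counts in any library, so the spread between libraries sets the limits.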

Other observations

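Pseudogenes and overlapping genes that share windows with the tubulin genes had few counts beside them. Since the handling of reads that match several genes was not given, these counts cannot show how many such reads were dropped or moved. Gm14150, which shares windows with Tuba1b and Tuba1c, had 155 to 255 counts per library, against 44329 to 56979 for Tuba1b. Tubb4b-ps1 had 61 to 156 counts per library, against 9900 to 17900 for Tubb4b. AC157548.1 had 29 to 97 counts and Gm3226 17 to 62, while Gm17383 had 0 counts in all 6 libraries.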
